A study of Arabidopsis thaliana with 12 samples.

Results

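The genes described here were 10 members of the NAC family of plant transcription factors that are known for roles in stress, chosen by name: ANAC013, ANAC017, ANAC019, ANAC055, ANAC072, ATAF1, ATAF2, ANAC102, ANAC032 and JUB1. They were 10 of the 33208 features in the deposited table of an RNA-seq study of Arabidopsis thaliana rosettes. Members and further gene lists were chosen with earlier results of these data known, so counts of them are descriptions and not independent evidence. The study compared wild type with med25-1, a mutant line of MED25, which encodes a subunit of the Mediator co-activator complex. Plants of both genotypes were grown for 3 weeks on plates with 0.5% sucrose in a cycle of 16 h light and 8 h dark. They were then either kept under control conditions or exposed to 1% oxygen for 3 h and frozen at once. Each of the 4 groups (wild-type control, wild-type hypoxia, med25-1 control and med25-1 hypoxia) had 3 libraries that the series describes as biological replicates. The mutant was represented by 1 line, and neither the lesion of the allele nor the number of plants per library was given in the labels. Whole rosettes mix cell types, so fewer cells of a type and less RNA per cell cannot be told apart in any level given here.

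NAC proteins share a DNA-binding domain at the amino-terminal end and act as activators or repressors of stress, hormone and senescence genes. ANAC013 and ANAC017 are held in the endoplasmic reticulum membrane by a carboxy-terminal helix, and their release during mitochondrial dysfunction carries the signal to nuclear genes such as the alternative oxidase AOX1A. ANAC019, ANAC055 and ANAC072 form a clade of drought, abscisic acid and jasmonate response factors, and the jasmonate factor MYC2, a known partner of the MED25 protein, binds their promoters. ATAF1, ATAF2, ANAC032 and ANAC102 form the ATAF clade of wound, abscisic acid and oxidative stress factors, and JUB1 (also ANAC042) is a hydrogen peroxide-induced factor that delays leaf senescence.

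The libraries held 7170796 to 20501572 reads assigned uniquely to genes. The shallowest, med25-1 hypoxia replicate 3, stood apart from the rest. The leading 20 genes held 8.97% of its reads and 13.4% to 15.9% of those of the other 11 libraries, and it had the highest level of all 12 libraries for 8 of the 10 NAC genes. Values that moved by over 1.5 times or lost a call without it are therefore given both ways, and its part in them was not tested. The labelled treatment was visible in PCO1, ADH1 and HB1, known hypoxia genes, which rose by 8.32 ± 0.25, 5.90 ± 0.36 and 6.65 ± 0.27 (log2 fold change ± SE) in wild type. MED25 itself had 32.7 to 34.9 CPM (counts scaled to the normalised library size) in wild-type control against 20.7 to 31.2 CPM in med25-1 control, a log2 difference of -0.45 ± 0.20 that was not called (edgeR quasi-likelihood test, adjusted p = 0.133). Under hypoxia it was 26.2 to 38.0 CPM in wild type and 14.2 to 21.5 CPM in med25-1, lower by -0.96 ± 0.20 (edgeR adjusted p = 0.0066). The leaf marker RBCS1A lay between 5405 and 11873 CPM in the 12 libraries. Other leaf markers were counted over wild-type control, wild-type hypoxia, med25-1 control and med25-1 hypoxia. In that order LHCB1.1 held 216425, 264308, 179059 and 220025 reads, GLK1 4983, 6614, 8340 and 8508, and GLK2 5083, 4751, 6029 and 4115. Of the 4 leaf markers 1 was called higher with hypoxia in wild type and 1 higher in med25-1 under control. The root marker CASP1 had 0 reads in 9 of 12 libraries, and the floral marker AP3 stayed at or below 0.223 CPM. Other listed markers were detected. Over wild-type control, wild-type hypoxia, med25-1 control and med25-1 hypoxia, the root marker CASP2 held 39, 51, 58 and 25 reads. In that order NRT2.1 (root) held 34, 11, 3 and 6, AG (floral) 15, 6, 8 and 16, and PI (floral) 39, 227, 16 and 80. PI was called in every pairwise comparison, higher with hypoxia and lower in med25-1.

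All 10 NAC genes passed the filter on low counts and entered the tests over 18212 genes. JUB1 passed through its med25-1 libraries, since it had 17 reads over the 3 wild-type control libraries and 26 over the 3 wild-type hypoxia libraries. A difference was called at an adjusted p under 0.05 in edgeR's quasi-likelihood test with Benjamini-Hochberg adjustment over all tested genes. All fold changes below are on the log2 scale.

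**Figure D1:**
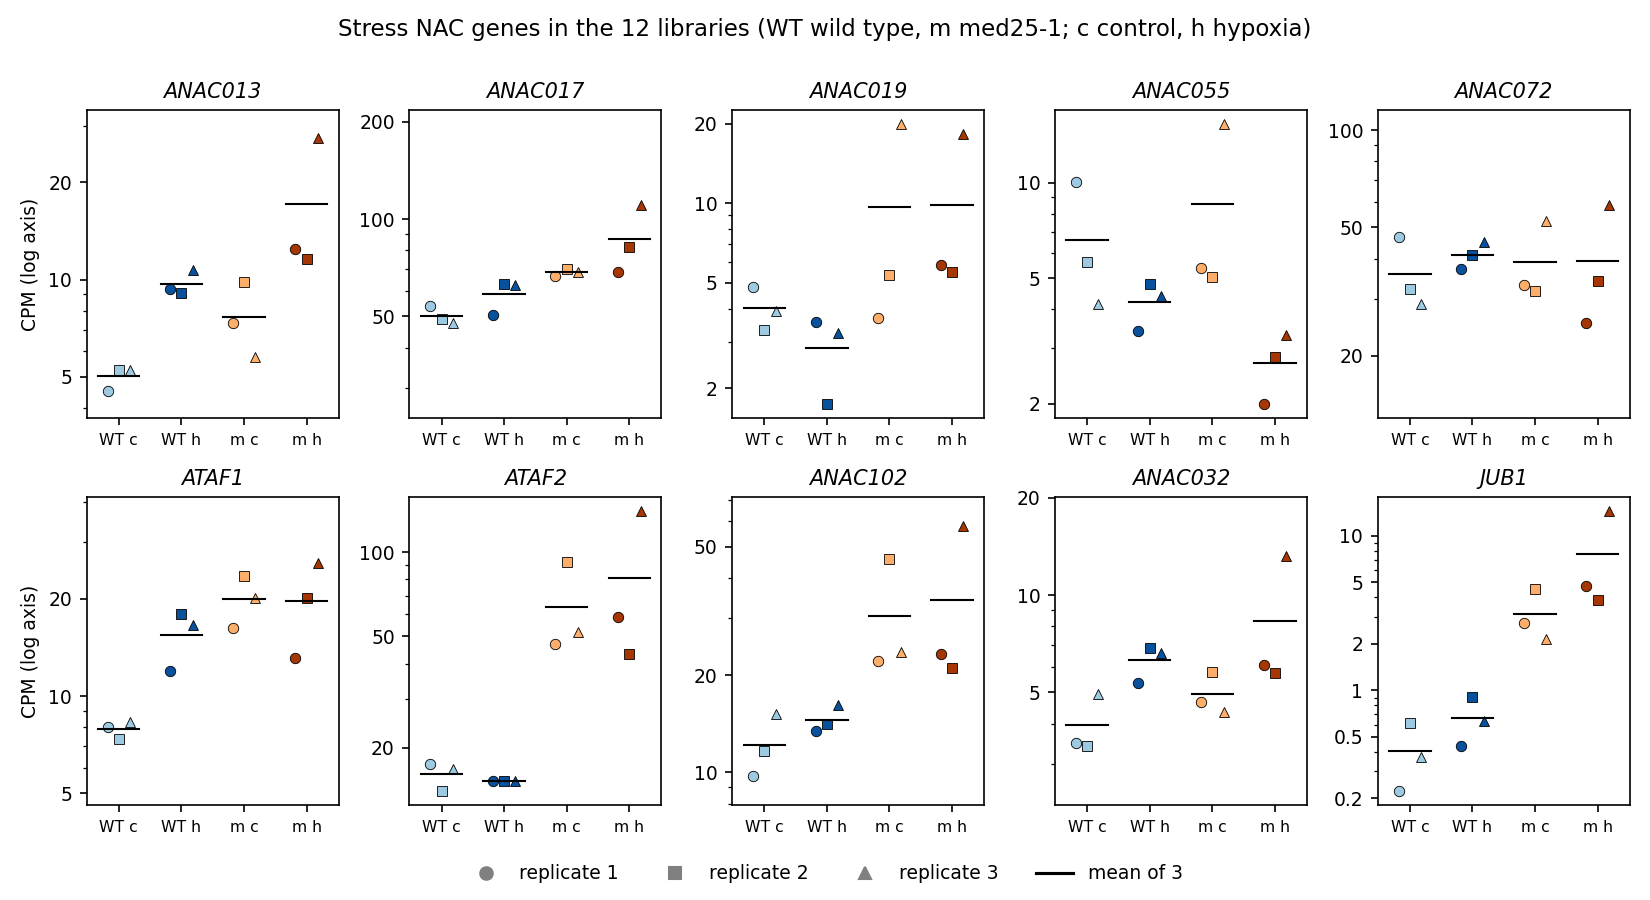
CPM of the 10 NAC genes in each library on log axes, with 4 groups on the horizontal axis, a symbol for each of the 3 replicates and a line at the mean of 3. ATAF2 and JUB1 are higher in all 6 med25-1 libraries than in all 6 wild-type libraries, and replicate 3 of med25-1 hypoxia is the highest library in 8 of the 10 panels.

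With oxygen deprivation 1 of the 10 NAC genes was called in each genotype, close to the share over all genes. In wild type it was ATAF1 with a rise of 0.97 ± 0.24, beside 6.48% of all 18212 genes called in either direction, 3.05% higher and 3.43% lower. With limma voom with sample weights 5 of the 10 were called higher in wild type, where it called 5461 of all 18212 genes. These were ANAC013, ANAC017, ANAC072, ATAF1 and ANAC032. In med25-1 it was ANAC013 with a rise of 1.15 ± 0.30, beside 5.28% of all genes, 1.88% higher and 3.40% lower. The median log2 fold change of the 10 was 0.24 in both genotypes, where the median of all tested genes was 0.00 in wild type and 0.02 in med25-1. The median of the 10 in med25-1 was -0.29 without med25-1 hypoxia replicate 3, and that of all genes 0.01, so the sign of the former rests on that library. Levels in the hypoxia libraries were above every control library for ANAC013, ATAF1 and ANAC032 in wild type (16.3% of all genes did the same) and for ANAC013 in med25-1 (9.36% of all genes). No member was wholly lower in wild type, where 16.3% of all genes were, and ANAC055 was the 1 such member in med25-1, where 13.3% of all genes were.

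The differences between the genotypes were larger. Under control conditions 4 of the 10 were higher in med25-1 than in wild type and 0 were lower: JUB1 by 2.96 ± 0.61, ATAF2 by 1.98 ± 0.38, ATAF1 by 1.34 ± 0.24 and ANAC102 by 1.31 ± 0.38. Over all genes 17.1% were called in this comparison, 8.98% higher and 8.13% lower. Under hypoxia 4 were again higher and 0 lower: JUB1 by 3.50 ± 0.57, ATAF2 by 2.40 ± 0.39, ANAC102 by 1.21 ± 0.38 and ANAC017 by 0.56 ± 0.16, beside 21.6% of all genes called with 12% called higher and 9.62% lower. The median of the 10 was 0.94 under control and 0.68 under hypoxia, against -0.02 and -0.05 for all tested genes. The median under hypoxia was 0.33 without med25-1 hypoxia replicate 3, and that under control 0.94. Under control 6 of the 10 had all med25-1 libraries above all wild-type libraries (23.1% of all genes) and 0 had them all below (24.5% of all genes). The same count under hypoxia was 6 (17.3% of all genes), and ANAC055 alone was wholly lower there (19.1% of all genes). The calls for ATAF2 and JUB1 in both genotype comparisons, and for ATAF1 under control, were kept in every alternative tried.

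**Figure D2:**
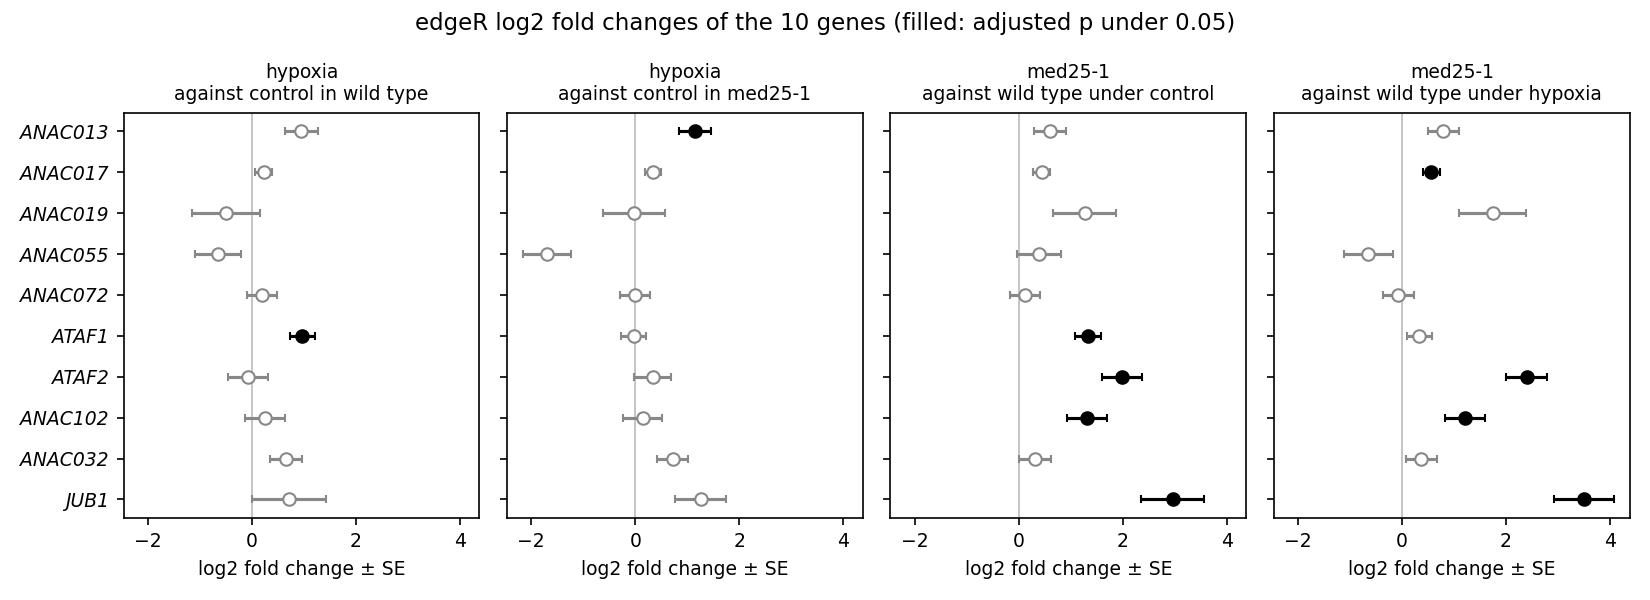
Log2 fold changes with standard errors (horizontal axis) of the 10 NAC genes (vertical axis) in the 4 pairwise comparisons from the edgeR fit; filled points passed an adjusted p of 0.05. JUB1 has the largest of these values, 2.96 and 3.50, in the 2 genotype comparisons, and the hypoxia comparisons each hold 1 filled point.

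ANAC013 (AT1G32870, TAIR10 chr1:11911631-11913947, plus strand), one of the pair of membrane-held mitochondrial signalling factors, stood at 4.53, 5.25 and 5.26 CPM in wild-type control. Its levels were 9.34, 9.12 and 10.7 CPM in wild-type hypoxia. The med25-1 control libraries held 7.34, 9.85 and 5.75 CPM and the med25-1 hypoxia libraries 12.4, 11.6 and 27.5 CPM. The groups were apart in each comparison, with all hypoxia libraries above the control libraries of their genotype and all med25-1 libraries above wild type in the same condition. The rise with hypoxia was 0.95 ± 0.31 in wild type (edgeR adjusted p = 0.105) and 1.15 ± 0.30 in med25-1 (edgeR adjusted p = 0.0497), so only the second was called, at the edge of the threshold. Without med25-1 hypoxia replicate 3 the order turned: the med25-1 value was 0.65 (edgeR adjusted p = 0.0976) and the wild-type value stayed at 0.95 and was called (edgeR adjusted p = 0.00792). The med25-1 call was lost in 14 of 20 alternatives, with adjusted p from 0.00716 to 0.234, among them the leaving out of any 1 of the wild-type libraries and of med25-1 control replicates 1 and 3. The difference between the responses of the genotypes was 0.19 ± 0.44 (edgeR adjusted p = 0.979).

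ANAC017 (AT1G34190, chr1:12451405-12454542, plus strand), the partner that is reported to act upstream of ANAC013 in that signal, was the highest of the 10 per transcript length in wild type. Its levels were 53.8, 49.0 and 47.7 CPM in wild-type control and 50.5, 63.1 and 62.6 CPM in wild-type hypoxia. Its levels were 66.6, 70.002 and 68.6 CPM in med25-1 control and 68.7, 81.9 and 110.3 CPM in med25-1 hypoxia. The wild-type ranges overlapped between conditions, and the mutant libraries lay above the wild-type ones in each condition. The genotype difference was 0.45 ± 0.16 under control, with an edgeR adjusted p of 0.0789, and it was 0.56 ± 0.16 under hypoxia, with an adjusted p of 0.0287 from the same test. The call under hypoxia was lost without med25-1 hypoxia replicate 3 (0.36, edgeR adjusted p = 0.0836) and without any 1 of the 3 wild-type hypoxia libraries, with adjusted p up to 0.124 over its alternatives. Without that med25-1 library the difference under control was called (0.45, edgeR adjusted p = 0.0137).

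ANAC016, the gene next to ANAC017 and a senescence factor with the same kind of membrane anchor, lies directly upstream on the same strand and differed far more. Its levels were 0.446, 0.876 and 0.532 CPM in wild-type control against 15.7, 10.5 and 27.6 CPM in med25-1 control, a difference of 4.88 ± 0.56 (edgeR adjusted p = 2.03e-04). ANAC016 was low in wild type, with 26 and 24 reads over the control and hypoxia groups against 977 and 438 in med25-1. The size of its difference thus rests on few wild-type reads. The 250 bases before the start of ANAC017 reach into ANAC016 and held the only match among the 10 NAC promoters to the mitochondrial dysfunction motif that ANAC013 and ANAC017 are known to bind. The match, 110 to 98 bases before the start, is shown in capitals because it is the one stretch that holds this motif.
ANAC017 motif match: CGTGTCAGACAAG
The motif was searched as CTTGNNNNNCAAG or CTTGNNNNNCACG on both strands, and 1.20% of 27443 promoter windows of this length held a match. A match is a description of letters, not of binding.

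In the clade of ANAC019, ANAC055 and ANAC072, no comparison was called. ANAC019 (AT1G52890, chr1:19696923-19698482, minus strand), a positive regulator of abscisic acid and jasmonate responses, stood at 4.83, 3.33 and 3.93 CPM in wild-type control and 3.55, 1.74 and 3.25 CPM in wild-type hypoxia. Its levels were 3.70, 5.37 and 19.96 CPM in med25-1 control and 5.86, 5.52 and 18.3 CPM in med25-1 hypoxia. In each med25-1 group replicate 3 was thus far above the other 2 libraries, and under hypoxia all 3 mutant libraries lay above wild type. The genotype difference under hypoxia was 1.74 ± 0.64 (edgeR adjusted p = 0.071), and 0.99 without med25-1 hypoxia replicate 3 (edgeR adjusted p = 0.32). It passed the threshold with DESeq2, with the replicate block (1.61, edgeR adjusted p = 0.0378), without med25-1 control replicate 3 and without med25-1 hypoxia replicate 1 (lowest adjusted p = 0.0141).

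ANAC055 (AT3G15500, chr3:5234457-5236196, plus strand), which acts with ANAC019 downstream of jasmonate, stood at 10.11, 5.60 and 4.15 CPM in wild-type control and 3.40, 4.81 and 4.38 CPM in wild-type hypoxia. In med25-1 it stood at 5.37, 5.03 and 15.4 CPM under control and 2.00, 2.81 and 3.30 CPM under hypoxia. The med25-1 hypoxia libraries were the 3 lowest of the 12, and the wild-type ranges overlapped. The difference between hypoxia and control in med25-1 was -1.70 ± 0.46, just short of the threshold (edgeR adjusted p = 0.0542, range 0.00909 to 0.222 over its alternatives). It was called with DESeq2, without the filter on low counts, without wild-type control replicate 1 and without med25-1 control replicate 2. Without med25-1 control replicate 3 it was -0.97 (edgeR adjusted p = 0.222). In the library med25-1 hypoxia replicate 3 the paralogues parted, ANAC019 at 18.3 CPM and ANAC055 at 3.30 CPM, while both were at their highest in med25-1 control replicate 3, at 19.96 and 15.4 CPM.

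ANAC072 (AT4G27410, also RD26, chr4:13707192-13709170, minus strand), the abscisic acid and dehydration-induced member, was the steadiest of the clade. Its libraries stood at 46.7, 32.1 and 28.9 CPM in wild-type control, 37.0, 41.0 and 45.2 CPM in wild-type hypoxia, 33.2, 31.7 and 52.2 CPM in med25-1 control and 25.2, 34.2 and 58.7 CPM in med25-1 hypoxia. All 4 ranges overlapped. Its log2 differences lay between -0.07 and 0.19 in the 4 pairwise comparisons, with an SE of 0.29 in each, so a difference of the size of an SE would not be seen. With limma voom with sample weights the rise with hypoxia in wild type was 0.43 and was called (limma voom adjusted p = 0.0446).

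In the ATAF clade, ATAF1 (AT1G01720, chr1:267993-269819, plus strand), a factor that connects abscisic acid, carbon starvation and senescence, stood at 8.03, 7.35 and 8.29 CPM in wild-type control. Its levels were 11.9, 17.9 and 16.7 CPM in wild-type hypoxia. The med25-1 control libraries held 16.2, 23.6 and 20.1 CPM and the med25-1 hypoxia libraries 13.1, 20.1 and 25.8 CPM. The wild-type control libraries were thus the 3 lowest of the 12, and the other 3 groups overlapped with one another. The rise with hypoxia in wild type was 0.97 ± 0.24 (edgeR adjusted p = 0.0342) and was lost without any 1 of the wild-type control libraries or without wild-type hypoxia replicate 2 or 3, with adjusted p up to 0.125. In med25-1 the change with hypoxia was -0.03 ± 0.23 (edgeR adjusted p = 0.954). The genotype difference was 1.34 ± 0.24 under control, with an edgeR adjusted p of 0.00378, and it was 0.33 ± 0.24 under hypoxia, with an adjusted p of 0.333 from the same test. The test of the difference between the genotypes' responses gave -1.0 ± 0.34, with an unadjusted p of 0.0115 and an edgeR adjusted p of 0.929 over all genes (lowest 0.191 over its alternatives). These comparisons share the wild-type control libraries. A response limited to wild type was therefore not shown for ATAF1 at this number of libraries.

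ATAF2 (AT5G08790, chr5:2858849-2860558, minus strand), a wound- and pathogen-responsive factor, stood at 17.5, 14.0 and 16.7 CPM in wild-type control and 15.2, 15.3 and 15.2 CPM in wild-type hypoxia. Its levels were 47.0, 92.4 and 51.7 CPM in med25-1 control and 58.5, 43.4 and 140.2 CPM in med25-1 hypoxia. All 6 mutant libraries were above all 6 wild-type libraries, and the conditions overlapped within each genotype. The genotype difference was 1.98 ± 0.38 under control, with an edgeR adjusted p of 0.00546, and it was 2.40 ± 0.39 under hypoxia, with an adjusted p of 0.00167 from the same test. Without med25-1 hypoxia replicate 3 the second was 1.74 (edgeR adjusted p = 9.12e-04).

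ANAC102 (AT5G63790, chr5:25526509-25528281, minus strand), a chloroplast- and nucleus-associated factor reported to affect Arabidopsis seed germination under low oxygen, stood at 9.73, 11.7 and 15.2 CPM in wild-type control and 13.4, 14.2 and 16.2 CPM in wild-type hypoxia. Its levels were 22.1, 45.9 and 23.6 CPM in med25-1 control and 23.3, 21.0 and 58.0 CPM in med25-1 hypoxia. Again all 6 mutant libraries were above all 6 wild-type libraries. The genotype difference was 1.31 ± 0.38 under control, with an edgeR adjusted p of 0.0359, and it was 1.21 ± 0.38 under hypoxia, with an adjusted p of 0.0425 from the same test. The control call was lost without any 1 of the wild-type control libraries, wild-type hypoxia replicate 3 or med25-1 control replicate 2 (values of 0.90 to 1.51 over its alternatives, highest adjusted p = 0.141). The hypoxia call was lost without any 1 of the 6 wild-type libraries and without med25-1 hypoxia replicate 3, where the value was 0.60 (edgeR adjusted p = 0.196). Its change with hypoxia was 0.25 ± 0.39 in wild type and 0.14 ± 0.37 in med25-1, neither of them called, and the latter was -0.46 without med25-1 hypoxia replicate 3.

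ANAC032 (AT1G77450, chr1:29099839-29101759, plus strand), an abscisic acid and oxidative stress factor and the remaining member of the clade, was called in no comparison of the edgeR fit. Its levels were 3.49, 3.41 and 4.94 CPM in wild-type control, 5.36, 6.88 and 6.63 CPM in wild-type hypoxia, 4.68, 5.78 and 4.35 CPM in med25-1 control and 6.06, 5.73 and 13.2 CPM in med25-1 hypoxia. The wild-type hypoxia libraries were all above the wild-type controls, and the mutant conditions overlapped. The difference between hypoxia and control was 0.66 ± 0.31 in wild type (edgeR adjusted p = 0.286) and 0.72 ± 0.30 in med25-1 (edgeR adjusted p = 0.170), the latter 0.26 without med25-1 hypoxia replicate 3. In wild type it was called with limma voom with sample weights (0.67, limma voom adjusted p = 0.008).

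JUB1 (AT2G43000, chr2:17880457-17882636, minus strand) was near the detection limit in wild type and clearly present in med25-1. Its levels were 0.223, 0.613 and 0.372 CPM in wild-type control and 0.434, 0.912 and 0.635 CPM in wild-type hypoxia. Its levels were 2.72, 4.55 and 2.15 CPM in med25-1 control and 4.75, 3.82 and 14.5 CPM in med25-1 hypoxia. The lowest mutant library was above the highest wild-type library. The groups held 17, 26, 157 and 251 reads in that order. The genotype difference was 2.96 ± 0.61 under control, with an edgeR adjusted p of 0.00782, and it was 3.50 ± 0.57 under hypoxia, with an adjusted p of 0.00175 from the same test. Without med25-1 hypoxia replicate 3 the second was 2.70 (edgeR adjusted p = 0.0014). Its change with hypoxia, 0.72 ± 0.71 in wild type and 1.26 ± 0.48 in med25-1, was not called, and the latter was 0.46 without med25-1 hypoxia replicate 3.

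The promoters of the 3 members called higher in med25-1 in both conditions are shown so that their letters can be compared. They are the 250 bases before the RefSeq gene start in TAIR10.1, read on the strand of the gene, with matches to the W-box core (TTGAC) and the as-1 core (TGACG) on either strand in capitals. The coordinates are chr5:2860559-2860808 for ATAF2, chr5:25528282-25528531 for ANAC102 and chr2:17882637-17882886 for JUB1, all on the minus strand.
ATAF2: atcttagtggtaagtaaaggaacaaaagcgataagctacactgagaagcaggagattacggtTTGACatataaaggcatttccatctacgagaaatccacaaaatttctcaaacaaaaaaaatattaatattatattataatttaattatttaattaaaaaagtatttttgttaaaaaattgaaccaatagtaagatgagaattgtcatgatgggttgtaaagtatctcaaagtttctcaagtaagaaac
ANAC102: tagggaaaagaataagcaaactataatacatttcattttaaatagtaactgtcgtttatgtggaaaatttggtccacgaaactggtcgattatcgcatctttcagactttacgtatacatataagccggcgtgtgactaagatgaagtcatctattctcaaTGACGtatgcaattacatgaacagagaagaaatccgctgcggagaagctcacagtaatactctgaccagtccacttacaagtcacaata
JUB1: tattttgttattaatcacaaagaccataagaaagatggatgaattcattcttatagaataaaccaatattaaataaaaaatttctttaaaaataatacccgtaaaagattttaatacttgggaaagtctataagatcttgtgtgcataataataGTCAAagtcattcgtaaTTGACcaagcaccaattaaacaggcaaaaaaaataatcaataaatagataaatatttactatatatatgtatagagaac
ATAF2 held 1 W-box core, JUB1 held 2 and ANAC102 held none but 1 as-1 core. Over the 10 members the W-box core, the core letters of WRKY factor sites, was found in 5, where 44.9% of 27443 windows held it. The as-1 core, the core letters of TGA factor sites, was found in 2, ANAC102 and ANAC032, where 18.6% of windows held it. The abscisic acid response core ACGTG was found in 4, ANAC013, ANAC019, ANAC072 and ANAC032 (22.9% of windows). The G-box CACGTG, which contains that core and is bound by MYC factors, was found in ANAC019 and ANAC032 (6.49% of windows), at 126 to 121 and 50 to 45 bases before the start. The 3 promoters shown had neither of the last 2 motifs.

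Compared per length with the authors' deposited RPKM values, the order of the 10 differed between the genotypes in its upper ranks. In wild-type control it ran from ANAC017 at 17.5 ± 0.78 and ANAC072 at 17.2 ± 4.1 RPKM (SD, n = 3), which overlapped, to ATAF2 at 9.53 ± 0.88, ANAC102 at 6.98 ± 1.68 and ATAF1 at 4.32 ± 0.21. ANAC055, ANAC019, ANAC013 and ANAC032 followed between 3.79 and 2.08 RPKM, each overlapping the next, and JUB1 was apart at 0.272 ± 0.141. In med25-1 control ATAF2 was first at 39.0 ± 15.6 RPKM, with all its libraries above those of ANAC017 at 24.6 ± 0.78. JUB1 was last at 1.95 ± 0.68 RPKM but overlapped ANAC032 at 2.68 ± 0.46. In med25-1 hypoxia JUB1 was eighth by its mean of 5.55 ± 4.40 RPKM, above ANAC032 at 4.76 ± 2.46, which it overlapped. Per length JUB1 lay below ANAC032 in replicates 1 and 2, so this order rests on med25-1 hypoxia replicate 3. ANAC055 was last and apart at 1.69 ± 0.46. Neighbours in the order overlapped in 6 of 9 steps in wild-type control, 4 of 9 in wild-type hypoxia and 8 of 9 in each med25-1 group.

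**Figure D3:**
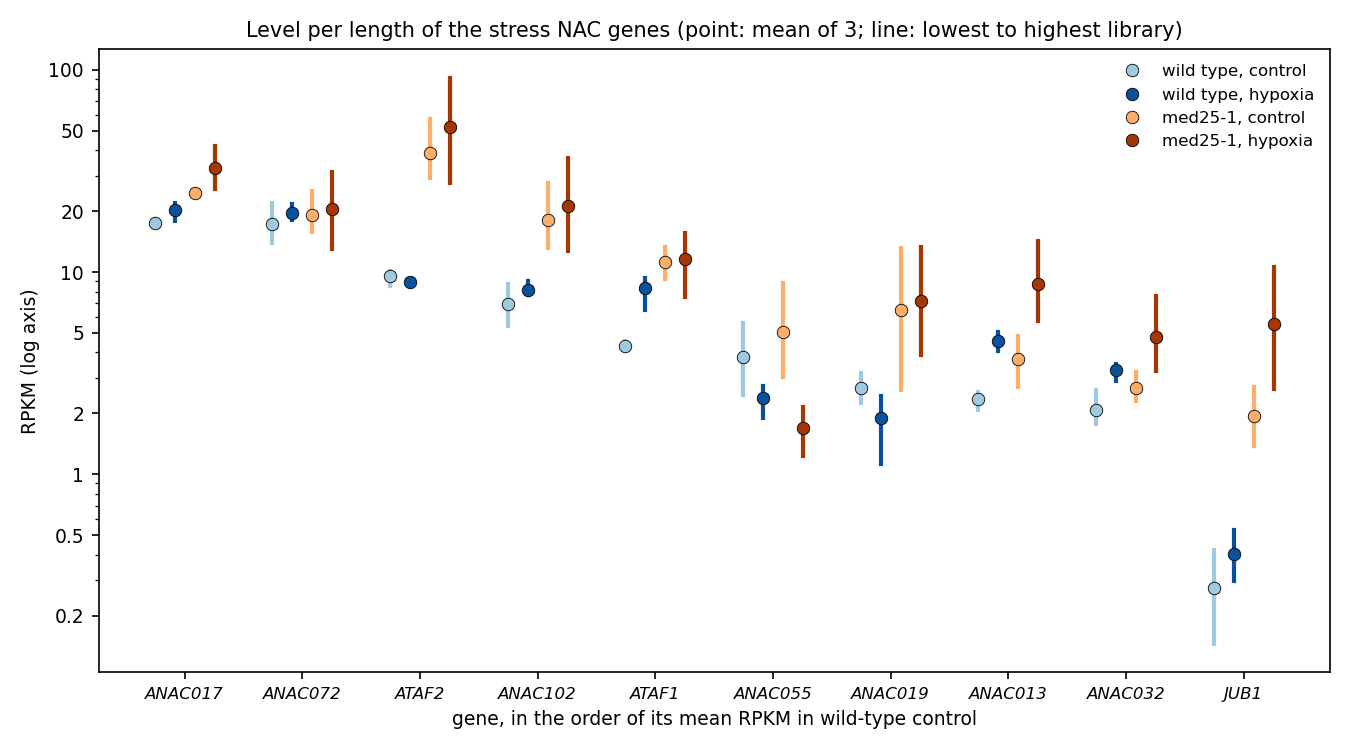
RPKM of the 10 NAC genes on a log axis, in the order of their wild-type control means; points are means of 3 libraries, and lines run from the lowest to the highest library. ATAF2 stands below ANAC017 and ANAC072 in wild-type control (9.53 RPKM) and above both in med25-1 control (39.0 RPKM), and JUB1 is the lowest gene in both wild-type groups.

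A difference between the genotypes in the response to hypoxia was called for no member: 0 of the 10, and 0 of all 18212 genes, passed the threshold for the interaction in edgeR's quasi-likelihood test. In simulated data of this size the interaction test recovered 26.5% of 2-fold and 83.8% of 4-fold changes over 18212 genes. The simulation gave each gene a spread set by its mean level alone, and no library that stood apart as med25-1 hypoxia replicate 3 does. Recovery in the real libraries was not measured and may be lower, so smaller differences would mostly be missed. At an unadjusted p under 0.05 there were 910 of the 18212 genes, and ATAF1 was the 1 member among them. That count is close to what this cut passes where no gene differs. DESeq2 called 16 genes, none of them a member, and limma voom with sample weights called 0. Of the listed genes described below 0 were called for the interaction, and GA3OX1 had the smallest p at 1.26 ± 0.32 (edgeR adjusted p = 0.845). The smallest p of each other list belonged to NTL6 (0.73 ± 0.37), VNI2 (-0.59 ± 0.25), OM66 (1.56 ± 0.85), MYC4 (0.58 ± 0.24) and SEN1 (-0.73 ± 0.40), each with an edgeR adjusted p of 0.929. The OM66 value was 0.70 without med25-1 hypoxia replicate 3 and 2.32 without med25-1 control replicate 2.

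The share of reads in introns, a measure of unspliced transcript, was compared between hypoxia and control. For the 8 members with at least 10 intron reads the intron share ranged from 0 to 14.9% per library, the upper end in JUB1, whose counts are low. Mean shares of the other 7 lay between 0.186% and 3.74% in control and hypoxia. An exact permutation test within genotypes over 400 arrangements, adjusted over the 8 members, gave p = 0.95 for each. Only 20 of 37261 member reads were placed at more than 1 locus, so few reads were shared between near copies. On the opposite strand 5 members overlap other features; how the counting treated strand is not stated, so reads of such pairs cannot be told apart. AT5G63780, which overlaps ANAC102, held 5536 reads and differed by -0.58 ± 0.24 between genotypes under control and -0.98 ± 0.24 under hypoxia, opposite in sign to ANAC102. AT5G08780, which overlaps ATAF2, held 1524 reads and differed by -0.50 ± 0.31 and -0.45 ± 0.32. AT1G01725, which overlaps ATAF1, held 2833 reads and was higher in med25-1 under control by 0.69 ± 0.22 (edgeR adjusted p = 0.0455), the same sign as ATAF1.

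Other genes of the NAC family were also higher in med25-1. Of those named here, ANAC016, ANAC090 and ANAC061 had larger differences under control than any of the 10. All of them had few reads in wild type (26 over the control group for ANAC016), so the sizes of these differences are uncertain. These lists too were chosen with earlier results of these data known, so their counts describe the listed genes only. Genes low in all groups were not tested and could not enter the counts. Of 13 further membrane-bound NAC factors, 10 were tested; 5 were higher and 0 lower in med25-1 under control (median 0.67), and 6 were higher and 0 lower under hypoxia (median 0.91). These counts stand beside 8.98% and 12% of all genes called higher. Beside ANAC016, the smallest p-values under control belonged to ANAC089, an endoplasmic reticulum factor, at 1.11 ± 0.13 under control and 0.81 ± 0.13 under hypoxia, and to NTL10 at 2.19 ± 0.38 and 2.35 ± 0.36. Of 13 further senescence and stress NAC factors, 12 were tested. Under control 5 were higher and 1 lower (median 1.68), beside 8.98% and 8.13% of all genes. Under hypoxia 7 were higher and 1 lower (median 2.44, and 1.56 without med25-1 hypoxia replicate 3), beside 12% and 9.62% of all genes. ANAC036, a NAC factor that restricts growth when overexpressed, stood at 9.88, 11.5 and 11.96 CPM in wild-type control against 65.3, 80.1 and 104.4 CPM in med25-1 control, a rise of 2.90 ± 0.27. ANAC090 passed the filter on low counts through its med25-1 libraries, with 7 reads over the wild-type control group against 454 over the med25-1 control group, and 15 against 978 under hypoxia. ANAC061 passed it in the same way, with no read (0) over the wild-type control group but 155 over the med25-1 control group. That is at least 43.4-fold higher when a floor of 3 reads over the group is used. ANAC041, lower by -0.57 ± 0.17 under control, and VNI2, lower by -0.71 ± 0.18 under hypoxia, are named for their direction after their values were seen. The ANAC041 call was lost without any 1 of the 6 control libraries or wild-type hypoxia replicate 3, and that of VNI2 without wild-type hypoxia replicate 2.

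With hypoxia few genes of the same lists were called, and the list medians were 0.22 and 0.42 for the membrane-bound factors and -0.09 and 0.28 for the others in wild type and med25-1. The med25-1 medians were 0.14 and -0.17 without med25-1 hypoxia replicate 3. TIP, a membrane-bound factor, was the 1 called of 10 in each genotype and rose by 0.84 ± 0.20 in wild type and 1.03 ± 0.20 in med25-1, beside 6.48% and 5.28% of all genes called in either direction. The wild-type count was 2 without med25-1 hypoxia replicate 3. In wild type ANAC036 rose by 0.99 ± 0.27 among the 12 senescence and stress factors, and in med25-1 ANAC041 rose by 0.80 ± 0.17. ORE1, a promoter of leaf senescence, fell by 2.19 ± 0.48 in wild type and by 2.14 ± 0.50 in med25-1, the latter -2.80 without med25-1 hypoxia replicate 3. Without that library the senescence and stress factors held 2 higher and 2 lower genes in wild type and 1 higher and 2 lower in med25-1. It went from 9.20 to 14.9 CPM in wild-type control to 1.45 to 3.25 CPM in wild-type hypoxia. The wild-type calls of TIP and ANAC036 were lost without any 1 of the 6 wild-type libraries. That of ORE1 was lost without wild-type control replicate 1 or any wild-type hypoxia library, and the med25-1 calls of TIP, ANAC041 and ORE1 were each lost without med25-1 control replicate 1. ANAC041 was also lost without med25-1 control replicate 3, and ORE1 without that library, wild-type control replicate 2 or med25-1 hypoxia replicate 1 or 2. ANAC036 was also lost without med25-1 control replicate 2 or med25-1 hypoxia replicate 1.

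Genes reported to lie downstream of ANAC013 and ANAC017 differed between genotypes in both directions. Of 10 listed mitochondrial retrograde genes 7 were tested. Of these 5 were higher and 1 lower in med25-1 under control (median 1.49) and likewise 5 and 1 under hypoxia (median 1.97). Over all genes 8.98% were higher and 8.13% lower under control, and 12% and 9.62% under hypoxia. OM66, an outer mitochondrial membrane protein, differed by 4.24 ± 0.62 under control (3.48 without med25-1 control replicate 2) and 5.80 ± 0.65 under hypoxia (4.93 without med25-1 hypoxia replicate 3). NDB2, an alternative NADH dehydrogenase, was higher by 3.29 ± 0.53 under hypoxia, and by 2.37 without the latter library. AOX1D, an alternative oxidase, had 401 reads over the med25-1 control group against 2 over its wild-type counterpart, a ratio of 168 (95% exact interval 46.3 to 1396, counting error only). AOX1D also had 2 reads over the wild-type hypoxia group, so it passed the filter on low counts through its med25-1 libraries. UPOX, a mitochondrial oxidative stress protein, was lower by -1.81 ± 0.31 and -1.83 ± 0.31. With hypoxia 0 of the 7 were called in either genotype by edgeR, beside 6.48% of all genes in wild type and 5.28% in med25-1. The medians were 0.12 and 0.18, the second -0.08 without med25-1 hypoxia replicate 3. Without that library the counts called lower were 2 in wild type and 1 in med25-1. AOX1A had the smallest p in wild type (-1.41 ± 0.45, edgeR adjusted p = 0.0953) and OM66 in med25-1 (1.67 ± 0.52, edgeR adjusted p = 0.0821). The OM66 value was 0.81 without med25-1 hypoxia replicate 3 (edgeR adjusted p = 0.277). It was 2.44 without med25-1 control replicate 2 (edgeR adjusted p = 0.0175).

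Of 16 reported downstream genes of the other members 15 were tested. Of these 3 were higher and 1 lower in med25-1 under control (median 0.38), with 2 and 1 under hypoxia (median -0.01). Over all genes 8.98% were higher and 8.13% lower under control, and 12% and 9.62% under hypoxia. Without med25-1 hypoxia replicate 3 the count of higher genes under control was 6. GA3OX1, a gibberellin synthesis gene that JUB1 is known to repress, was lower by -2.67 ± 0.22 under control and -1.41 ± 0.23 under hypoxia. Its libraries ran from 15.0 to 16.6 CPM in wild-type control against 2.31 to 2.66 CPM in med25-1 control. ICS1, the salicylate synthesis gene reported as repressed by the ANAC019 clade, was higher by 3.67 ± 0.69 (2.66 without med25-1 control replicate 2) and 5.06 ± 0.73 (4.09 without med25-1 hypoxia replicate 3). ABCG40, an abscisic acid importer reported as a target of ATAF1, was higher by 3.15 ± 0.90 and 3.82 ± 0.91. The ABCG40 call under control was lost without any 1 of the wild-type control libraries or med25-1 control replicate 2 (1.22 without the latter), and the call under hypoxia without wild-type hypoxia replicate 3. That value was 2.77 without med25-1 hypoxia replicate 3. With hypoxia in wild type 3 of the 15 rose and 2 fell (median 0.21), beside 3.05% and 3.43% of all genes. Among them were TRE1, a trehalase reported as a target of ATAF1, by 1.13 ± 0.17 and GA3OX1 by -1.47 ± 0.21. In med25-1 0 rose and 1, ORE1, fell (median 0.23), beside 1.88% and 3.40% of all genes. In med25-1 2 fell without hypoxia replicate 3 of that genotype, with a median of -0.00.

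Among 17 regulators and partners of the members 16 were tested, and 2 were higher and 0 lower in med25-1 in each condition (medians 0.30 and 0.19), close to the 8.98% and 12% of all genes called higher. ABF3, an abscisic acid response factor, differed by 1.03 ± 0.28 and TGA5 by 0.69 ± 0.19 under control, each lost without any 1 of the wild-type control libraries or med25-1 control replicate 3, and TGA5 also without med25-1 control replicate 2. Without med25-1 hypoxia replicate 3 the count under control was 6. Under hypoxia MYC4 differed by 0.62 ± 0.17 and TGA5 by 0.64 ± 0.19, and the count was 1 without that library. MYC4 was also lost without wild-type hypoxia replicate 1 or 3 or med25-1 hypoxia replicate 2, and TGA5 without any 1 of the 3 wild-type hypoxia libraries. With hypoxia RHA2A, a ubiquitin ligase reported to bind ANAC proteins, rose by 0.83 ± 0.16 in wild type and 0.67 ± 0.15 in med25-1, the second call being lost without any 1 of the med25-1 control libraries or med25-1 hypoxia replicate 2. RBL2, a rhomboid protease gene listed with the cleavage of membrane-bound NAC factors, fell by 0.76 ± 0.16 in wild type, a call lost without replicate 1 of either wild-type group, and by 0.84 ± 0.16 in med25-1. MYC2 was listed at 0 uniquely assigned reads in all 12 libraries and could not be tested; the authors' deposited RPKM for it, which counts reads placed at more than 1 locus as well, ran from 0.104 to 0.928.

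Of 9 listed senescence markers 7 were tested, and SAG13 alone was higher in med25-1. Over all genes 8.98% were higher under control and 12% under hypoxia. SAG13 differed by 6.07 ± 0.91 and 7.09 ± 0.87, the latter 5.61 without med25-1 hypoxia replicate 3. It was low in wild type, with 23 and 38 reads over the control and hypoxia groups against 1916 and 3882 in med25-1. The list medians were 0.50 and 0.49, the second -0.20 without med25-1 hypoxia replicate 3. With hypoxia 0 rose and 2 fell in each genotype, ORE1 and SEN4 (-2.06 ± 0.53) in wild type and ORE1 and SEN1 (-1.09 ± 0.29) in med25-1. Over all genes 3.05% rose and 3.43% fell in wild type, and 1.88% and 3.40% in med25-1. The call of SEN4 was lost without any 1 of the wild-type libraries or med25-1 control replicate 1. That of SEN1 was lost in 15 of 20 alternatives, among them without any 1 of the 6 wild-type libraries, or without replicate 1 or 3 of either med25-1 group. The counts without med25-1 hypoxia replicate 3 were 2 higher and 3 lower in wild type and 0 and 3 in med25-1. The list medians with hypoxia were -0.36 in wild type and -0.72 in med25-1. The lists overlap, since ORE1 is also counted among the senescence and stress NAC factors and the downstream genes, and NAP among the former. The fall of ORE1 is thus the same observation in each of these lists.

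**Figure D4:**
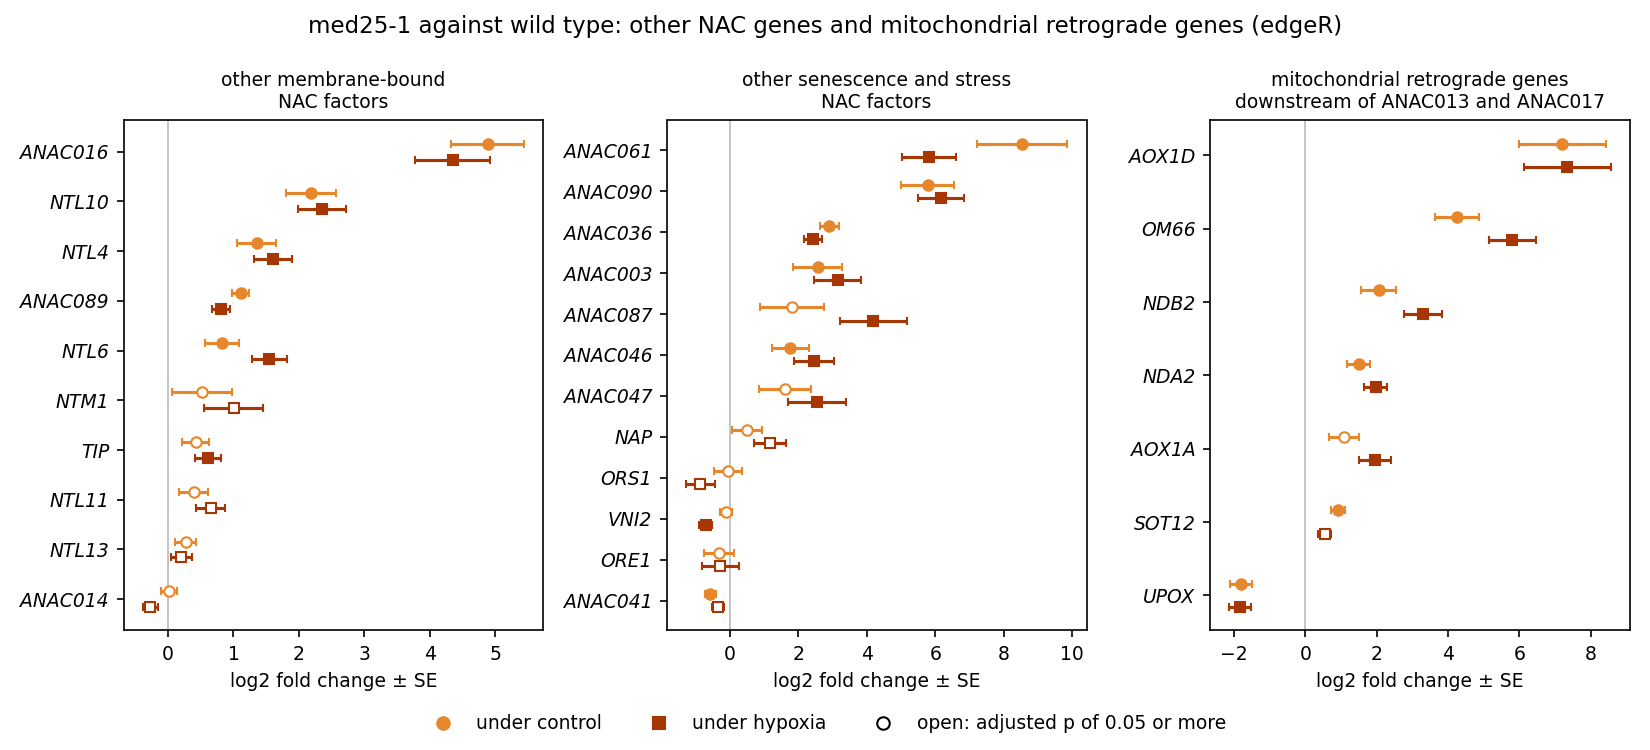
Log2 fold changes with standard errors of med25-1 against wild type under control (circles) and under hypoxia (squares) for 10 membrane-bound NAC genes, 12 senescence and stress NAC genes and 7 mitochondrial retrograde genes; filled symbols passed an edgeR adjusted p of 0.05. ANAC016 (4.88 under control, with 26 reads over the wild-type control group) and OM66 (5.80 under hypoxia) stand far to the right, and UPOX (-1.81) lies to the left.

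For the 6 members called in at least 1 comparison, the genes with the most similar profile were found by the root-mean-square difference of log2 CPM over the 12 libraries after removal of each gene's mean. ATAF2, with a spread of 1.12 around its own mean, was nearest to CYP83B1, an indole glucosinolate enzyme, at 0.19, and to TCH3, a calmodulin-like gene, at 0.25. JUB1, with a spread of 1.58, was nearest to AT1G76980 at 0.29 and ATERDJ3A, an endoplasmic reticulum co-chaperone, at 0.32. ANAC102 was nearest to AT3G01335 at 0.23 and to the heat stress factor gene HSF A4A at 0.24. ATAF1 was nearest to AT4G38550 at 0.18 and to ZAR1, an immune receptor gene, at 0.19. ANAC013 was nearest to PPC1, a phosphoenolpyruvate carboxylase gene, and to AT1G05170, both at 0.18. ANAC017 was nearest to RGS1, a regulator of G-protein signalling, at 0.06 and to AT4G16430 at 0.07. These are descriptions over libraries that share depth and the spread of med25-1 hypoxia replicate 3.

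The authors' deposited table gave an FDR-corrected p under 0.05 for 3 members with hypoxia in wild type (ANAC013, ATAF1 and ANAC032) and 0 in med25-1. For genotype it gave 4 under control and 0 under hypoxia, and all of these members had positive fold changes. The 4 under control were ATAF1, ATAF2, JUB1 and ANAC017, whereas edgeR called ANAC102 there and not ANAC017. For ANAC102 under control the authors' Baggerley's test gave a fold change of 2.43 and a corrected p of 0.0863. For ATAF1 in wild type the authors' deposited table gave a fold change of 1.97 and a corrected p of 0.00217. For JUB1 under control it gave 7.87 and 1.46e-04, and under hypoxia the authors' deposited table gave 11.2 and 0.233. For ANAC013 with hypoxia in wild type the authors' deposited table gave 1.91 and 3.79e-12. For ANAC017 under control the authors' deposited table gave 1.31 and a corrected p listed as 0.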

How the data were processed

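RNA was sequenced from rosettes of 12 samples with a stranded mRNA kit, per the labels' protocols. The build was TAIR10, per the submitters' processing notes, and aligner and strand setting were not given in the sources used here. In 1 table the authors deposited, per library, counts of unique gene, exon and intron reads, total gene reads and RPKM. Per comparison they deposited an FDR-corrected p-value beside a score, the signed fold change of normalised values, from Baggerley's test per the file headers. The deposited "expression values" equal the unique gene read counts.

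Counts were fitted in edgeR 4.0.16 (filterByExpr, TMM, quasi-likelihood, 1 mean per group over 12 libraries, 5 contrasts, two-sided, Benjamini-Hochberg adjustment over 18212 genes) and the code was tested on simulated data. Each SE is approximate: it is the fold change over the square root of F, on the log2 scale. Similarity of profiles used a prior count of 2. Alternatives used DESeq2 1.42.0, limma 3.58.1 voom with sample weights, other read classes, other filters and each library left out. Members and lists were chosen with earlier results of these data known. All members were named, with up to 3 called genes of smallest p per list and comparison, or 1 where none was called. Promoter windows came from the RefSeq annotation of TAIR10.1, in which 32896 of 33208 features had the same start and end. No 2 replicate libraries agreed within counting noise.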

Additional observations from a re-analysis of the deposited data

How the results depend on the processing

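No called difference of a member changed its sign under any alternative. Of 989 member values recomputed, 928 kept their side of the threshold, 38 lost a call and 23 gained one. Most of the 989, with every interaction value among them, belong to differences not called as reported. The 928 is therefore no measure of how steady the calls were. All 38 losses fell on the calls of ATAF1 and ANAC013 with hypoxia, of ANAC017 under hypoxia and of ANAC102. The count of members called for hypoxia in med25-1 (1 as reported) was 0 with DESeq2 size factors, exon reads, total gene reads, the replicate block and the 2 groups alone, and 2 with DESeq2 and without the filter on low counts. For hypoxia in wild type (1 as reported) it was 5 with limma voom with sample weights and 2 in the fit of the 2 groups alone, which tested 9 members and not JUB1. For genotype under control (4 as reported) it was 6 with limma voom with sample weights and 5 in the fit of the 2 groups alone. For genotype under hypoxia (4 as reported) it was 2 in the fit of the 2 groups alone, 3 with limma voom with sample weights, 5 with the replicate block and 6 with DESeq2. Leaving out 1 library gave 0 to 2, 0 to 2, 3 to 6, 2 to 6 and 0 members for hypoxia in wild type, hypoxia in med25-1, genotype under control, genotype under hypoxia and the interaction.

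Over all genes, hypoxia in wild type gave 1181 calls, 5461 with limma voom with sample weights and 2408 in the fit of the 2 groups alone (559 to 1933 with 1 library left out). Hypoxia in med25-1 gave 961 calls, 35.6% of them higher; it gave 1926 with DESeq2 (51.5% higher) and 175 with the 2 groups alone (323 to 1841). Genotype under control gave 3115 calls, 6774 with the same weighted voom fit and 5177 with the 2 groups alone (1285 to 5027). Genotype under hypoxia gave 3933 calls, 55.5% of them higher, and 1819 with the 2 groups alone, 70.1% higher (2214 to 5124). The interaction gave 0 calls, 16 with DESeq2 and 0 with any library left out, and the fit of 2 groups alone cannot test it. The causes of these shifts were not tested. Without med25-1 hypoxia replicate 3, an alternative added after seeing the data, the list counts of genotype calls were 7 and 5 higher membrane-bound NAC factors under control and hypoxia, 5 and 6 higher senescence and stress NAC factors, 6 and 5 higher mitochondrial retrograde genes, and 6 and 2 higher downstream genes of the other members.

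Over all groups 6 of 18 same-number pairs had a correlation over 0.1, and 4 of 12 libraries correlated best with their own number. Between the hypoxia groups all 3 same-number pairs did (0.114 to 0.490), and in each of the other pairs of groups at least 1 did not. The replicate block ended the med25-1 hypoxia call of ANAC013 (adjusted p = 0.0747) and brought ANAC019 under hypoxia past the threshold (adjusted p = 0.0378). Depth limits JUB1 among the members, with as few as 3 reads in a library, and further ANAC061, AOX1D and ANAC090, with 0, 2 and 7 reads over the wild-type control group.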

Other observations

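For ATAF2 the wild-type hypoxia group had the smallest SD in CPM of any member and group, at 15.2 ± 0.0257 CPM (SD, n = 3). In RPKM it was 8.93 ± 0.333, and JUB1 had a smaller SD of 0.118 RPKM in that group. The med25-1 hypoxia group of ATAF2 had an SD of 52.1 CPM around a mean of 80.7 CPM. In med25-1 control, replicate 2 was the highest of its group for ATAF2, ANAC102, ATAF1, JUB1, ANAC013, ANAC032 and ANAC017, and replicate 3 was the highest for ANAC019, ANAC055 and ANAC072. No explanation of this split was tested.

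ICS1, the salicylate synthesis gene, had the same order of med25-1 control libraries as JUB1, ANAC013 and ANAC032, at 72.5, 224 and 38.6 CPM for replicates 1, 2 and 3. Its hypoxia levels were 181, 192 and 727 CPM in med25-1 against 8.11, 14.2 and 10.7 CPM in wild type. In med25-1 hypoxia the order of the ICS1 libraries differed from that of JUB1, and a link between these genes was not tested. The floral identity gene PI, in rosettes whose other floral markers AP3 and AG had at most 0.527 CPM, rose with hypoxia by 2.67 ± 0.34 in wild type and 2.52 ± 0.40 in med25-1.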
